A study of Mus musculus with 2 samples.

Results

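The 10 genes described here belong to the nuclear and feedback end of canonical Wnt signalling: the feedback targets Axin2, Nkd1, Nkd2, Rnf43, Znrf3 and Sp5, and the 4 DNA-binding Tcf/Lef factors Lef1, Tcf7, Tcf7l1 and Tcf7l2. They were chosen by gene symbol, with no measured value in the rule, and all 10 were found among 22054 genes. RNA was measured by sequencing in laser-captured lower molar mesenchyme of mouse embryos at embryonic day 14.5, on a mixed background. Osr2+/- embryos (heterozygous, the control) were compared with Osr2-/- embryos (homozygous mutant). Both groups thus carry an Osr2 mutation, and no wild-type library was used here, although the series title speaks of wild type. Each library was made from pooled tissue, with 3 pairs of control and mutant samples pooled before RNA extraction, and there was 1 library per genotype. The cDNA was amplified with the NuGEN Ovation kit for small RNA amounts, per the labels. No difference below therefore has a replicate check, and the sequencing lane given in the file names cannot be told apart from genotype.

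Wnt ligands bind Frizzled and Lrp receptors at the cell surface, which stops the destruction complex from degrading beta-catenin. Beta-catenin then enters the nucleus and binds Tcf/Lef factors at their DNA sites, which turns on target genes, several of which damp the pathway again. In the developing tooth, Wnt signals pass between epithelium and mesenchyme, and mouse embryos without Lef1 arrest tooth formation early. Osr2, a zinc-finger protein that regulates transcription in the tooth mesenchyme, restrains tooth formation: without it, mice grow supernumerary teeth lingual to their molars. The comparison asks whether levels of these pathway genes differ in molar mesenchyme without Osr2.

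Levels are in RPKM, mapped reads scaled to transcript length and library size, with the rows of a gene summed. The control library was the shallow one, at roughly 5.38 M mapped reads, while the mutant library had 34.3 M by the same estimate from coverage. Each level and fold is given with a 95% counting interval (exact Poisson for a level, Clopper-Pearson for a fold) from approximate read numbers. These intervals cover counting error only, and they may be too narrow even for that, since amplified reads are not independent molecules. Osr2 was at 38.7 RPKM in Osr2+/- and 9.16 RPKM in Osr2-/-, 4.23-fold lower (3.69 to 4.84); which part of the gene the allele deletes was not given in the labels. The 14 dental mesenchyme markers were all above 0 in both libraries. The 4 Y-linked genes examined (Ddx3y, Eif2s3y, Kdm5d, Uty) ranged from 1.81 to 3.28 RPKM in Osr2+/- and were at or near 0 in Osr2-/-. The pools thus differed in Y-linked RNA, and embryo sex cannot be told apart from genotype. None of the 10 genes lies on a sex chromosome, but an effect of sex on their levels was not tested.

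Among the 10 genes, Lef1 and Tcf7 were higher in the mutant library, Tcf7l1 was modestly lower, and Axin2, Nkd2 and Tcf7l2 were at nearly the same level in both. In bulk tissue, more cells of a type and more RNA per cell cannot be told apart. Of the 10, 8 reached 1 RPKM in at least 1 library and were compared by log2((mutant RPKM + 1)/(control RPKM + 1)), called the log2 ratio here, a scale that understates differences of low genes. None of the 8 was 2-fold apart in either direction. Over all 9779 genes compared in this way, 0.890% were past 2-fold on the higher side and 0.798% on the lower side. The counting interval of the fold lay above 1 for 2 of the 8 (Lef1 and Tcf7) and below 1 for 1 (Tcf7l1), against 7.87% and 15.9% of all genes compared. The median log2 ratio of the 8 was 0.05, beside -0.05 over all genes compared.

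**Figure D1:**
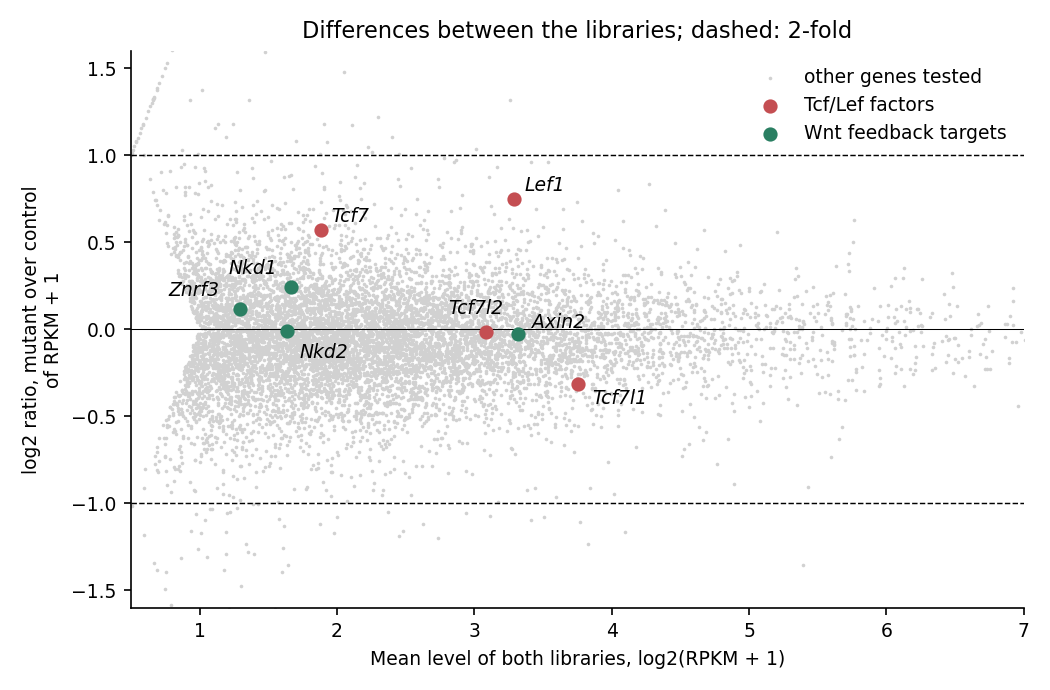
Log2 ratio of mutant over control (RPKM + 1, vertical axis) against the mean level of both libraries (log2(RPKM + 1), horizontal axis); each point is a gene, grey points are the other genes compared, and 189 of 9779 genes lie outside the axes. Lef1 (0.75) and Tcf7 (0.57) lie near the upper edge of the grey cloud, and no coloured point passes the dashed 2-fold lines.

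Lef1 encodes the Tcf/Lef factor classically tied to activation of Wnt targets. It maps to chromosome 3 from 130813389 to 130926249 (mm9, the build of all positions unless another is named), and 1 transcript of 2457 bases represents it. It was at 6.56 RPKM in Osr2+/- (5.27 to 8.12, about 87 reads) and 11.7 RPKM in Osr2-/- (11.0 to 12.5, about 986 reads). The intervals of the 2 libraries do not overlap. The mutant level was 1.78-fold the control level (1.43 to 2.24), a log2 ratio of 0.75. Of 9779 genes, 1.5% had a higher ratio, and among the 3909 genes at 5 RPKM or more Lef1 ranked number 43 from the top.

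Tcf7, which encodes the factor also known as Tcf1, lay in the same direction at a lower level. It lies on chromosome 11 from 52066106 to 52095752 and has 1 listed transcript of 2224 bases. Tcf7 was at 2.02 RPKM in Osr2+/- (1.29 to 2.99) and 3.48 RPKM in Osr2-/- (3.08 to 3.93), 1.72-fold higher (1.14 to 2.76), with a log2 ratio of 0.57 that 2.75% of genes exceeded. The control value rests on about 24 reads. If a read were worth 2 times as many bases, the interval of the fold would include 1 (0.96 to 3.45). Lef1 was at 3.24 times the level of Tcf7 in the control and 3.36 times in the mutant. These differ by a factor of 1.04, with a wide counting interval of 0.61 to 1.66. For both genes a single RefSeq row is listed, so forms that start inside the gene and lack the part that binds beta-catenin, known for Lef1 and Tcf7, cannot be told apart from full-length ones.

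Tcf7l1 (Tcf3), which mostly acts as a repressor of Wnt targets when beta-catenin is absent, was the most abundant of the 10 in the control. It lies on chromosome 6 from 72576374 to 72738950. Its level was 14.0 RPKM in Osr2+/- (12.2 to 16.0) and 11.1 RPKM in Osr2-/- (10.4 to 11.8), 1.26-fold lower (1.08 to 1.46), a log2 ratio of -0.31. An interval below 1 was frequent among all genes, as given above. Tcf7l2 (Tcf4), on chromosome 19 from 55816300 to 56008145, was at 7.53 RPKM (6.43 to 8.78) and 7.43 RPKM (6.98 to 7.90), a ratio of 0.99 (0.83 to 1.16). With rows summed, neither of these 2 factors was higher in the mutant library on the deposited scale, and under other scalings Tcf7l2 had a log2 ratio of at most 0.03.

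**Figure D2:**
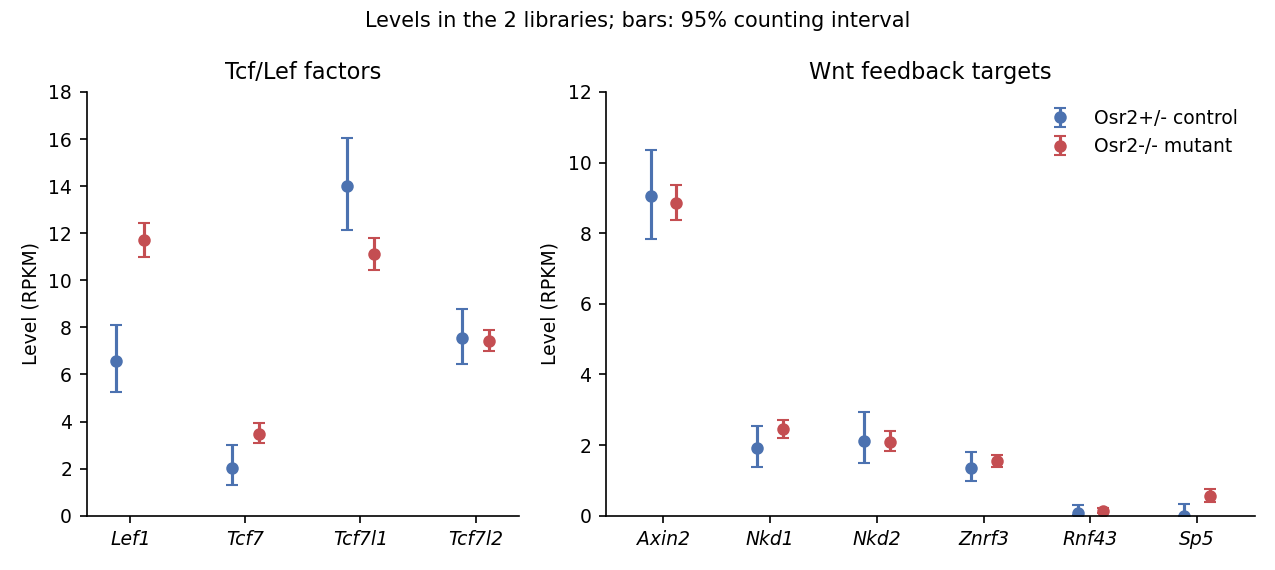
Levels in RPKM (vertical axes, both from 0) of the Tcf/Lef factors (left) and the Wnt feedback targets (right) in the Osr2+/- control (blue) and Osr2-/- mutant (red) library; points are single libraries and bars the 95% counting intervals. The intervals are apart for Lef1, Tcf7, Tcf7l1 and Sp5 and overlap for the other 6 genes.

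The make-up of the Tcf/Lef transcripts differed between the libraries while their sum was similar, at 30.1 RPKM in Osr2+/- and 33.7 RPKM in Osr2-/-. Lef1 and Tcf7 made up 28.5% of the sum in the control and 45.0% in the mutant. Tcf7l1 took the largest share in the control, at 46.5%, and 32.9% in the mutant, where Lef1 stood at 34.7%. By approximate reads, which weight long transcripts more, Lef1 and Tcf7 held 111 of 483 reads in the control (23.0%, exact binomial interval 19.3 to 27.0) and 1252 of 3334 in the mutant (37.6%, 35.9 to 39.2). Ratios within a library do not depend on how the library is scaled. The level of Lef1 was 0.47 times that of Tcf7l1 in the control and 1.05 times in the mutant, a 2.25-fold difference (counting interval 1.70 to 2.94). Relative to Tcf7l2, Lef1 went from 0.87 to 1.58 times its level, a 1.81-fold difference (1.37 to 2.41). Tcf7 relative to Tcf7l2 differed 1.75-fold (1.12 to 2.91), and Tcf7l1 relative to Tcf7l2 0.80-fold (0.65 to 1.02).

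**Figure D3:**
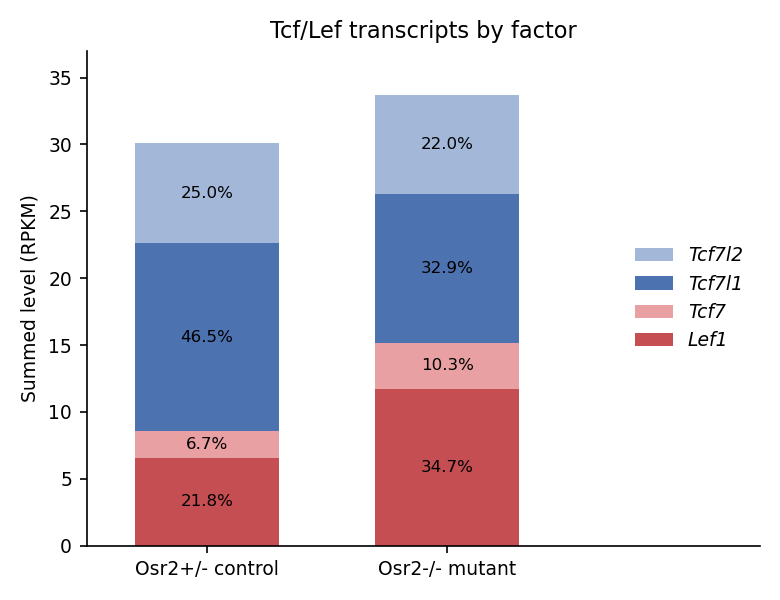
Stacked levels (RPKM, vertical axis) of the 4 Tcf/Lef factors in the control and the mutant library, with each factor's percent of the sum. The red segments, Lef1 and Tcf7, make up 28.5% of the control bar and 45.0% of the mutant bar.

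Tcf7l1 is listed as 2 transcripts that differ by 42 bases, and the tables split its reads differently in the libraries. In GENCODE M21, the extra 42 bases of NM_001079822 are the fifth coding exon, an in-frame stretch of 14 codons at chr6:72648801-72648842 (GRCm38, minus strand, not the mm9 build of the tables). The sequences are shown because this exon alone separates the coding parts of the rows, with the exon in capitals and 30 coding bases on each side in lower case.
Tcf7l1 with the exon: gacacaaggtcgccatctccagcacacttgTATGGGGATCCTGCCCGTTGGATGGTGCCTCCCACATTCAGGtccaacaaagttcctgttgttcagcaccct
Tcf7l1 without the exon: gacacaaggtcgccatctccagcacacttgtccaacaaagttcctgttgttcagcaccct
The row with the exon was at 3.01 RPKM in Osr2+/- and 5.13 RPKM in Osr2-/-, 21.5% and 46.2% of the gene. The row without it was at 11.0 RPKM and 5.97 RPKM. This row alone had a log2 ratio of -0.78, against -0.31 with both rows summed. The split rests on few reads: at even coverage, about 1.38 reads in the control and 15.0 in the mutant would touch the exon, and 2.56 and 8.86 the junction that skips it.

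Tcf7l2 is listed as 8 transcripts, which GENCODE M21 distinguishes by small internal exons, the last coding exon and the start. The highest row in both libraries was NM_001142922, the form with the longest coding sequence (1794 bases), at 3.16 RPKM in Osr2+/- and 3.88 RPKM in Osr2-/-. NM_009333 was at 1.41 and 1.81 RPKM, and NM_001142920 at 0.81 and 0.78 RPKM. NM_001142921 was at 2.15 RPKM in Osr2+/- and near 0 in Osr2-/-. NM_001142923 and NM_001142924 went the other way, near 0 in Osr2+/- and at 0.46 and 0.49 RPKM in Osr2-/-. NM_001142924 starts inside the gene, at 55969811 (mm9), and its coding sequence of 897 bases lacks the exons that begin the others. The remaining 2 rows were near 0 in both libraries. With only its highest row, the log2 ratio of Tcf7l2 was 0.23, against -0.02 with all rows summed. Rows of a gene share most of their sequence, so their division is an estimate made in the authors' processing.

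**Figure D4:**
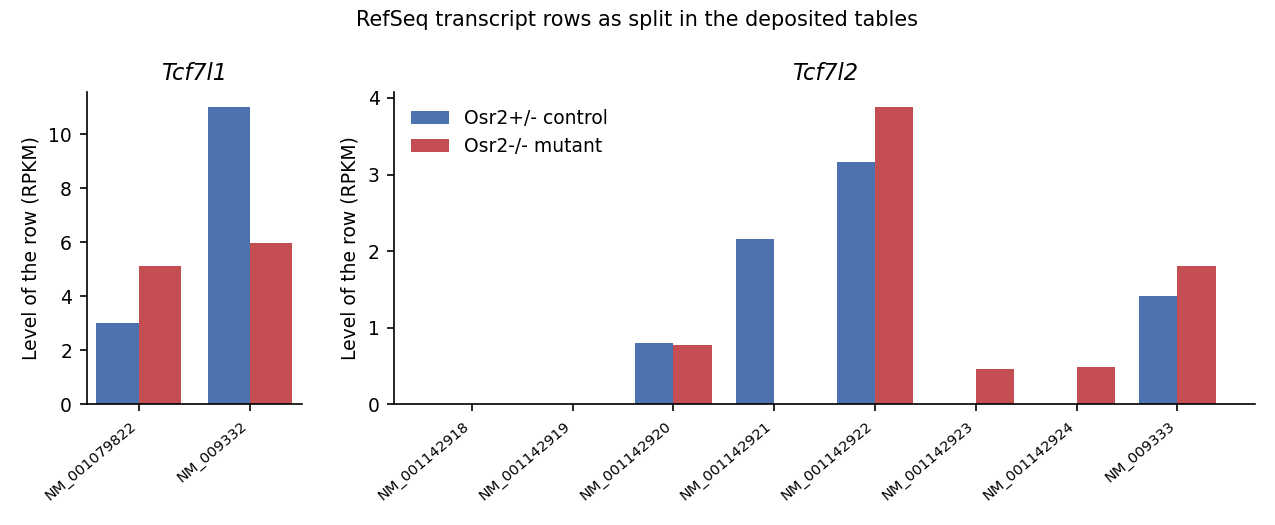
Level of each RefSeq transcript row (RPKM, vertical axes) of Tcf7l1 and Tcf7l2 in the control (blue) and mutant (red) library. The 2 rows of Tcf7l1 stand at 3.01 and 11.0 RPKM in Osr2+/- and at 5.13 and 5.97 RPKM in Osr2-/-; of the 8 rows of Tcf7l2, NM_001142922 is the highest in both.

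Of the feedback targets, the 4 that could be compared had log2 ratios from -0.03 to 0.24, and none had a counting interval of the fold that excluded 1. Axin2 encodes a scaffold of the destruction complex and is the usual reporter of canonical Wnt activity. It lies on chromosome 11 from 108781663 to 108812095. Axin2 was at 9.06 RPKM in Osr2+/- (7.85 to 10.4, about 207 reads) and 8.86 RPKM in Osr2-/- (8.38 to 9.36, about 1294 reads). The ratio was 0.98 (0.85 to 1.14), and its interval does not reach the fold of Lef1. Relative to Axin2, Lef1 was at 0.72 times its level in the control and 1.32 times in the mutant, a 1.82-fold difference (1.38 to 2.39).

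Nkd1 and Nkd2 encode the Naked cuticle proteins, which bind Dishevelled and limit signalling. Nkd1, on chromosome 8 from 91045243 to 91118786, was at 1.91 RPKM (1.38 to 2.55) in the control and 2.45 RPKM (2.20 to 2.71) in the mutant, 1.28-fold (0.94 to 1.81). Nearly all of it lay in the longer of 2 listed rows. Nkd2, on chromosome 13 from 73956776 to 73985079, was at 2.12 RPKM (1.50 to 2.94) and 2.10 RPKM (1.84 to 2.39), a ratio of 0.99 (0.69 to 1.43). The control values rest on about 44 and 37 reads, and both intervals of the fold include 1.

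Znrf3 and Rnf43 encode related membrane ubiquitin ligases that remove Frizzled receptors from the cell surface. Znrf3, on chromosome 11 from 5176332 to 5344850, was at 1.35 RPKM (0.99 to 1.81) and 1.55 RPKM (1.39 to 1.73), 1.15-fold (0.84 to 1.59). Rnf43, on chromosome 11 from 87476589 to 87549041, did not reach 1 RPKM. It was at 0.083 RPKM in Osr2+/- (0.010 to 0.31, about 2 reads) and 0.144 RPKM in Osr2-/- (0.088 to 0.217, about 21 reads), and the interval of the ratio, 0.40 to 14.5, holds no direction. The level of Znrf3 was above that of Rnf43 in both libraries, with intervals far apart.

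Sp5, a zinc-finger transcription factor and direct Wnt target, was listed above 0 in the mutant library alone. It lies on chromosome 2 from 70312980 to 70315783 and was listed at 0 in Osr2+/- and at 0.563 RPKM in Osr2-/- (0.397 to 0.757, about 40 reads). The two-sided interval of the control value, used in the plot of levels and in the order of levels, runs from 0 to 0.327 RPKM; the one-sided limit that a count of 0 allows (3 reads) is 0.266 RPKM. The mutant library was 6.38 times as deep, and an exact 0 in these tables can be a failed estimate, so no fold is given. The counting interval of the fold had a lower limit of 1.62 and no upper limit. If a read were worth 2 times as many bases, the lower limit would be 0.77 and the interval would include 1. Sp5 was below 1 RPKM in both libraries and was not among the 8 genes compared.

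The promoters of Sp5 and Axin2 are shown as the 2 targets at the extremes of the set, the low gene listed at 0 in the control and the abundant gene at equal levels. Each is the 250 bases before the start in RefSeq (GRCm38.p6, 5′ to 3′ on the gene's strand), with matches to the Tcf/Lef core on either strand in capitals. The core was searched as CTTTG followed by 2 letters that are each A or T.
Sp5, chr2:70474673-70474922, plus strand: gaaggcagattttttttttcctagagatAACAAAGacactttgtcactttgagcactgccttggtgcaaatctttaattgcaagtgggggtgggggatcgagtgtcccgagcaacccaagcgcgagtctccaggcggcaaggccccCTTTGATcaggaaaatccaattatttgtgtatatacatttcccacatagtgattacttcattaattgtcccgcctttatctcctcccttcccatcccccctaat
Axin2, chr11:108920099-108920348, plus strand: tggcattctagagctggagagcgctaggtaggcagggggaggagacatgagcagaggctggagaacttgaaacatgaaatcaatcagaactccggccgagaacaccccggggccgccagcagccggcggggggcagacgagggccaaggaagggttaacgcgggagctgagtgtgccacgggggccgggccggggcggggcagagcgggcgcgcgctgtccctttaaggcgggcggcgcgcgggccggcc
Sp5 has 2 matches, CTTTGAT on the plus strand and CTTTGTT on the minus strand, while the Axin2 window of 250 bases holds no match. Of all 32851 promoter windows, 14.8% hold a match, and of the 15 windows of 9 of the 10 genes, 3 do (Sp5, an internal start of Lef1 and an internal start of Tcf7l2). A match is a description of letters and no evidence of binding. Sequence outside the windows was not searched, so a window without a match does not show that a gene lacks such sites. Znrf3 was not in the promoter table.

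In order of level, the control ran Tcf7l1, Axin2, Tcf7l2, Lef1, Nkd2, Tcf7, Nkd1, Znrf3, Rnf43 and Sp5. The intervals of Axin2, Tcf7l2 and Lef1 overlapped, as did those of Nkd2, Tcf7, Nkd1 and Znrf3, and those of Rnf43 and Sp5. In the mutant the order was Lef1, Tcf7l1, Axin2, Tcf7l2, Tcf7, Nkd1, Nkd2, Znrf3, Sp5 and Rnf43. There, Lef1 and Tcf7l1 overlapped, as did Nkd1 and Nkd2, while the other neighbours were apart. Lef1 moved from the fourth place to the top and Tcf7 from the sixth to the fifth. The median level of all genes compared was 3.60 RPKM in Osr2+/- and 3.43 RPKM in Osr2-/-, so the 4 most abundant members lay above the middle in both.

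In the other Wnt pathway lists, only 2 of the genes compared, both antagonists, were 2-fold apart by the log2 ratio, which understates differences of low genes. Of all genes compared, 7.87% had an interval above 1 and 15.9% below 1, the shares to set beside the counts of each list. Of 22 cytoplasmic transducers compared, none was 2-fold apart, 1 had an interval above 1 (Ctnnb1, the beta-catenin gene, at 66.8 and 72.5 RPKM) and 1 below 1 (Btrc, a ubiquitin ligase subunit for beta-catenin, at 2.76 and 1.74 RPKM), with a median log2 ratio of 0.02. Of 26 nuclear partners, none was 2-fold apart, 2 had an interval above 1 and 4 below, with a median of -0.07. Bcl9l, a beta-catenin coactivator, was lower in the mutant, at 5.87 and 4.37 RPKM. Nlk (2.16 and 2.96 RPKM), Cby1 (2.66 and 3.70 RPKM) and Cxxc5 (1.25 and 1.84 RPKM) were higher. The interval of the fold excluded 1 for Nlk (1.03 to 1.87) and included it for Cby1 and Cxxc5.

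Of 16 further genes reported to respond to Wnt, none was 2-fold apart, 3 had an interval above 1 and 2 below, with a median of 0.03. Ccnd1, which encodes cyclin D1, was 1.34-fold higher (1.14 to 1.59) and Bambi, a pseudoreceptor of the TGF-beta family, 1.69-fold (1.08 to 2.85). Bambi was low, at 0.746 RPKM in the control (about 20 reads) and 1.26 RPKM in the mutant. It passed the filter of 1 RPKM through the mutant library alone. The transcription factor gene Tbx3 was at 10.6 and 6.70 RPKM and the Notch ligand gene Jag1 at 8.17 and 5.96 RPKM, both lower in the mutant. Response genes other than the 10 lay on both sides. So did all genes compared, with 7.87% above 1 and 15.9% below. Of 22 ligands, R-spondins and receptors, none was 2-fold apart by the log2 ratio, 3 had an interval above 1 and 6 below, with a median of -0.13. The ligand gene Wnt2 was low, at 1.15 and 0.495 RPKM, and passed the filter through the control library alone, on about 13 reads. Its plain fold was 2.33 lower in the mutant (1.12 to 4.45), with a log2 ratio of -0.53. Of 10 secreted or membrane antagonists, 2 were at least 2-fold lower and none higher, 6 had an interval below 1 and none above, with a median of -0.42. The lists share a few genes.

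**Figure D5:**
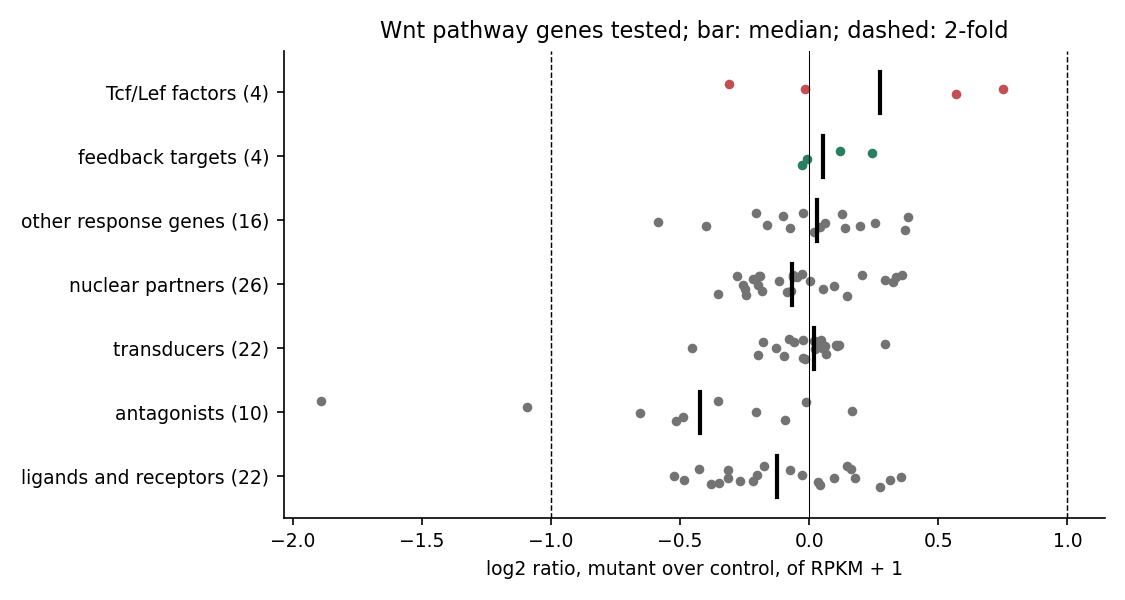
Log2 ratio of mutant over control (RPKM + 1, horizontal axis) of each Wnt pathway gene compared, by list, with the number of genes in parentheses; black bars are medians and dashed lines mark 2-fold. Lef1 (0.75) and Tcf7 (0.57) lie above every gene of the 5 other lists, whose highest values run from 0.17 to 0.38.

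Markers of other cell types also differed between the libraries. Of 25 dental epithelium markers in the tables, 16 were compared, with a median log2 ratio of 0.34. Of these, 8 had an interval above 1 and none below, beside 7.87% and 15.9% of all genes compared. Krt18 and Grhl2, both among the 8, and Cdh1 passed the filter of 1 RPKM through the mutant library alone. Cdh3 passed it through the control library alone. The summed level of the 25 markers was 55.3 RPKM in Osr2+/- and 75.4 RPKM in Osr2-/-, 1.36-fold. Dental epithelium is known to express Lef1. Of its defining markers, Krt5 was at 13.9 and 16.3 RPKM and Krt14 at 5.80 and 8.28 RPKM. Fgf4 was listed at 0 in both libraries. Cldn7 and Shh, both listed at 0 in Osr2+/-, reached only 0.392 and 0.175 RPKM in Osr2-/-. The counting intervals of their folds started at 0.69 (Cldn7) and 0.60 (Shh), had no upper limit and thus included 1. The 9 osteoblast markers summed to 5.13 and 26.1 RPKM. Of the 5 compared, 4 were at least 2-fold higher, with a median log2 ratio of 1.22. Among them, Alpl was above 1 RPKM in both libraries, at 2.22 and 6.51 RPKM, 2.93-fold higher (2.03 to 4.39). Sp7 (0.607 and 3.84 RPKM), Ibsp and Ifitm5 (0 and 1.12 RPKM) passed the filter of 1 RPKM through the mutant library alone. Such a filter favours higher ratios in genes that are low in the control. Without a filter the median was 0.41 for the osteoblast markers and 0.23 for the dental epithelium markers. Ibsp, a bone matrix protein gene, at 0.459 and 13.04 RPKM, gave the largest part of the difference in the sum, and Phex went the other way, at 1.78 and 1.05 RPKM. The 14 dental mesenchyme markers summed to 691 and 616 RPKM. Of these, 2 had an interval above 1 and 8 below, with a median log2 ratio of -0.18. No marker of endothelium, erythroid cells or macrophages had an interval above 1. Intervals below 1 numbered 2 of 7 compared for endothelium, 6 of 8 for erythroid cells and 1 of 4 for macrophages. The medians were -0.17, -0.24 and -0.16. The 9 neuron and Schwann cell markers summed to 4.04 and 5.81 RPKM, 1.44-fold. Of the 2 compared, 1 had an interval above 1 and 1 below. The 7 skeletal muscle markers summed to 2.40 and 3.28 RPKM, 1.37-fold, and the 1 compared had an interval that included 1. The part of these tissues in the levels of Lef1 and Tcf7 was not tested. Lymphocytes, which express both genes, gave almost no signal: none of 11 markers reached 1 RPKM, their sum was 0.77 and 1.16 RPKM, and 7 were at 0 in the control. Counting by strand is not stated in the sources used here, and antisense exons overlap Axin2, Lef1 and Tcf7l1 in GENCODE M21, so reads from them cannot be told apart.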

How the data were processed

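Bowtie 0.12.7, TopHat 1.4.1 and the mm9 mouse genome are named in the submitters' processing notes. File names point to Cufflinks, with its version not given in the sources used here. RPKM values per RefSeq transcript were deposited by the authors and were not rescaled. Coverage, a signal of mean reads per base that is not scaled for depth, was deposited by the authors beside them. The 2 tables list their 28107 rows in different orders and were joined by transcript, gene, locus and length. The 54 rows marked as failed or high-data in at least 1 library were left out and the rest summed per gene, leaving 22054 genes. Of these, 9779 had at least 1 RPKM in at least 1 library.

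Approximate reads are coverage times length divided by 44.3 bases, the mean over both libraries of the median product among products of 20 to 66 bases. That step is only an estimate, every interval rests on it, and no count model was fitted. The interval of a fold is that of the reads scaled by depth. With 1 library per genotype no test was made: a 2-fold rule and counting intervals describe these 2 libraries, and nothing shows whether tissue of separate embryos would differ as much. The interval code was tested on simulated counts. All 10 genes are reported; of other Wnt lists, genes were named among the 4 with the largest absolute log2 ratio, plus Ctnnb1, and of marker lists among the 3 highest. Shh, Cldn7, Fgf4, Krt18, Grhl2, Cdh1, Cdh3, Phex and Ifitm5 fall outside this rule and were chosen after their values were seen. The Y-linked genes were a check of the pools. The members and lists were chosen with earlier results of these data known. Python 3.11.15, pandas 2.3.3 and scipy 1.17.1 were used. Promoter windows are from RefSeq (GRCm38.p6) and exons from GENCODE M21 (GRCm38). Neither the Rnf43, Lef1 and Tcf7l1 windows that overlap annotated exons nor those of Tcf7 were printed. Alternatives varied the pseudocount, filter, scaling, transcript rows, row status and read step.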

Additional observations from a re-analysis of the deposited data

How the results depend on the processing

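The log2 ratios of Lef1 (0.75 to 0.87) and Tcf7 (0.57 to 0.80) stayed above 0, and that of Tcf7l1 (-0.78 to -0.28) below 0, under each of the 9 alternatives of pseudocount, filter, scaling, rows and status that gave a value; Tcf7 gave none with a filter of 5 RPKM. Axin2 and Nkd2 had values above 0 under both other scalings only, at most 0.01 and 0.03, and Tcf7l2 also with its highest row (0.23). The number of compared members with an interval above 1 was 1 with a filter of 5 RPKM, where 4 members remained to compare, and 1 with a read step 2 times as long; it was 3 with no filter and 3 on the TPM-like scale, where Sp5 joined Lef1 and Tcf7, against 2. Members at least 2-fold higher numbered 1 on the TPM-like scale, namely Sp5 (log2 ratio 2.65, against 0.64 in RPKM), since the values there are larger and the pseudocount of 1 weighs less. Using the highest row, Lef1 and Tcf7 held 37.7% of the Tcf/Lef sum in Osr2+/- and 60.6% in Osr2-/-, an alternative chosen after seeing the data.

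Counts over all genes moved more. At least 2-fold higher and lower were 197 and 244 genes with a pseudocount of 0.1, 173 and 269 with none, 24 and 26 with a filter of 5 RPKM, 895 and 690 on the TPM-like scale and 151 and 270 with the highest row, against 87 and 78; without rows under 200 bases 37 were higher and 52 lower, so that 41.6% of the 2-fold calls were higher, against 52.7%. Intervals above and below 1 numbered 392 and 815 with the filter of 5 RPKM and 293 and 734 with the longer read step, against 770 and 1555, and 1165 lay above 1 on the TPM-like scale. Without a filter the median log2 ratio was -0.11 for the antagonists, against -0.42, and 0.41 for the osteoblast markers, against 1.22. Beyond fewer genes under the stricter filter and the pseudocount noted above, the cause was not tested. No paired analysis was possible because there is 1 library per genotype, and none could be left out. The shallow control library limits Rnf43, Sp5 and Tcf7, at 2, 0 and 24 reads.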
